A study of Mus musculus with 8 samples.

Results

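The nuclear-encoded genes of the mitochondrial respiratory chain were examined in 4T1 tumors. Members were the protein-coding genes outside chromosome MT whose symbol begins with Nduf, Sdh followed by a letter from a to d, Uqcr, Cox followed by a digit, or Atp5. The rule took 107 of 54532 genes, and 104 of the 107 were among the 18511 genes with enough counts to be tested. The other 3, Cox7b2, Cox8c, and a second entry of Atp5o, had no count in any tumor.

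Bulk RNA-seq covered 8 tumors, 1 from each mouse, with 4 in the saline group and 4 in the mAb-DXd/IMQ group. All tumors came from 4T1 cells, a mouse triple-negative breast cancer (TNBC) line carrying firefly luciferase, grown under the skin of immunocompetent female BALB/cJ mice, aged 6 weeks at injection and of the strain the line derives from, so that each sample holds cancer cells and host cells together. mAb-DXd/IMQ is an antibody against CD276 that carries DXd, an inhibitor of topoisomerase I, and IMQ, an imidazoquinoline agonist of TLR7 and TLR8. Mice received 5 intravenous courses of 16 mg/kg, spaced 4 days apart, and tumors were collected at the endpoint. By then, the study reports, mean tumor volume was far smaller under mAb-DXd/IMQ than under saline, and stained sections of treated tumors showed much cancer cell death. A label of the saline tumors also calls them PBS control, and the labels give no sequencing batch. Total counts were 49398150, 45019927, 56388627, and 69582375 in saline tumors 1 to 4 and 51625237, 46196237, 42965317, and 34591912 in mAb-DXd/IMQ tumors 1 to 4 (two-sided exact permutation test, p = 0.171). Values below are CPM, counts scaled to library size with TMM factors. A count of 3 corresponds to between 0.0439 and 0.0843 CPM, a floor for counting error alone.

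The respiratory chain passes electrons from NADH and succinate to oxygen through complexes I, II, III, and IV in the inner mitochondrial membrane, and complex V, the ATP synthase, uses the resulting proton gradient to make ATP. Core subunits of complexes I, III, IV, and V carry out catalysis, supernumerary subunits surround them, and most assembly factors build the complexes without staying in them. Complex II is wholly nuclear-encoded, while the other complexes combine nuclear subunits with subunits encoded by mitochondrial DNA. Tumors of many kinds, 4T1 among them, keep a working respiratory chain beside active glycolysis. Members were grouped by complex, with 44 in complex I, 8 in complex II, 8 in complex III, 29 in complex IV, and 18 in complex V, and within each complex by role.

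Promoters of these genes are known for binding sites of NRF1, of the ETS-family factor GABP, of YY1, and of SP factors. RefSeq promoters (GRCm38.p6) of 250 bases before to 50 bases after the start were found for 86 of the 104 tested members. Both strands were searched for 4 motifs. The NRF1-type motif, GCGC and TGCGC with any 1 base between them, lay in 21 of the 86 (24.4%), against 5.19% of 27025 genes with a promoter. Unlike the 86, these 27025 were not limited to genes with enough counts to be tested in these tumors. An ETS-type motif, CCGGAAG, lay in 26 (30.2%, against 9.93%), a YY1-type motif, AAGATGGC, in 13 (15.1%, against 3.19%), and an SP-type motif, GGGCGG, in 43 (50%, against 38.2%). The letters of one motif are not contained in those of another. Median log2 fold changes of members with and without a motif were 0.13 and 0.10 for the NRF1-type, 0.12 and 0.12 for the ETS-type, 0.26 (13 members) and 0.10 (73 members) for the YY1-type, and 0.14 and 0.10 for the SP-type motif, differences that were not tested. A match is a description of the letters and does not show that a factor binds.

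Stretches before the start of 5 members are printed, 5′ to 3′ with motif letters in capitals, to show what these promoters look like. Cox6a1, Atp5h, and Ndufs5 were taken as the most abundant members per kilobase with an NRF1-type match in the stretch. Ndufaf2 was taken for the lowest p, and Ndufa4 for the lowest log2 fold change. Each was chosen among the members with a promoter entry and at least 80 bases that could be shown. Members on the chromosome that carries Ndufa2 and Atp5a1 were left out before the choice. The choice was made after the matches and fold changes had been seen, and each stretch ends before any annotated exon. All 5 lie on the minus strand of GRCm38, at chr5:115348982-115349129 (Cox6a1), chr11:115419963-115420112 (Atp5h), chr4:123718203-123718352 (Ndufs5), chr13:108158626-108158730 (Ndufaf2), and chr6:11907498-11907647 (Ndufa4).
Cox6a1: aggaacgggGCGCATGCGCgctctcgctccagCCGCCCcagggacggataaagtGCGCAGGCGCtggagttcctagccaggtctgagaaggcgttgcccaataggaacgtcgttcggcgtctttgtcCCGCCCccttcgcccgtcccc
Atp5h: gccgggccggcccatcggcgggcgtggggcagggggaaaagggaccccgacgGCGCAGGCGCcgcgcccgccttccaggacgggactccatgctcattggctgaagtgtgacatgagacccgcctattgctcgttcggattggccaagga
Ndufs5: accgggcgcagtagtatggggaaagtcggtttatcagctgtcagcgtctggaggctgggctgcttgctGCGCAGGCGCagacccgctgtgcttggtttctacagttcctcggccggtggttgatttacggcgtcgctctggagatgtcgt
Ndufaf2: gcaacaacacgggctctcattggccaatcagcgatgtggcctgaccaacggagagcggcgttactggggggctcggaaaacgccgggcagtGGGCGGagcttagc
Ndufa4: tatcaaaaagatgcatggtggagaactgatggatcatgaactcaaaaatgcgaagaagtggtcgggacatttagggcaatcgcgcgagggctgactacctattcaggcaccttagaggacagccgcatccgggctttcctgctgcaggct
Counted from the RefSeq start, the NRF1-type matches begin at -162 and -117 in Cox6a1, at -141 in Atp5h, and at -98 in Ndufs5. Cox6a1 also holds SP-type matches at -139 and -44. Ndufaf2 has an SP-type match at -14, and in the Ndufa4 stretch none of the 4 motifs was found.

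No member passed the test for a difference between mAb-DXd/IMQ and saline tumors, but most members had higher fitted values in the mAb-DXd/IMQ tumors. Of the 104 tested members, 0 passed edgeR's quasi-likelihood test at an FDR of 0.05 with an absolute log2 fold change above 0.58, against 1.06% of all 18511 tested genes (0.546% higher and 0.519% lower). The share of all genes that passed depended on single tumors. It was between 0.0529% (without saline 3) and 1.08% (without saline 1) when 1 tumor was left out. The lowest adjusted p of a member by edgeR's quasi-likelihood test was 0.0573. At an unadjusted p under 0.05 there were 21 members (20.2%, against 18.9% of all genes), of which 20 were higher (19.2%, against 9.13%) and 1 was lower (0.962%, against 9.79%). Without mAb-DXd/IMQ 3 there were 37 members under that p (35.6%, against 17.9% of all genes tested without it). DESeq2 passed 4 members at both limits (Ndufa2, Ndufaf2, Ndufaf6, and Ndufb7), against 4.25% of all genes. With upper quartile scaling edgeR passed 3 members, Atp5o, Ndufaf2, and Ndufb9 (2.88%, against 1.18% of all genes).

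The log2 fold change was above 0 in 78 of the 104 members (75.0%, against 52.6% of all tested genes). The median was 0.12 over the members and 0.022 over all genes. By complex, the medians were 0.17 in complex I (39 of 44 above 0), 0.0037 in complex II (4 of 8), 0.28 in complex III (6 of 8), 0.072 in complex IV (15 of 27), and 0.11 in complex V (14 of 17). The groups did not overlap in 11 members (10.6%, against 13.1% of all genes). All 11 were higher in mAb-DXd/IMQ tumors, against 5.97% of all genes for that direction and 7.1% for the other. They were Ndufaf2, Ndufaf6, Ndufa2, Ndufa3, Ndufab1, Ndufb9, Ndufs6, Cox18, Ndufa4l2, Atp5j2, and Atp5o.

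**Figure D1:**
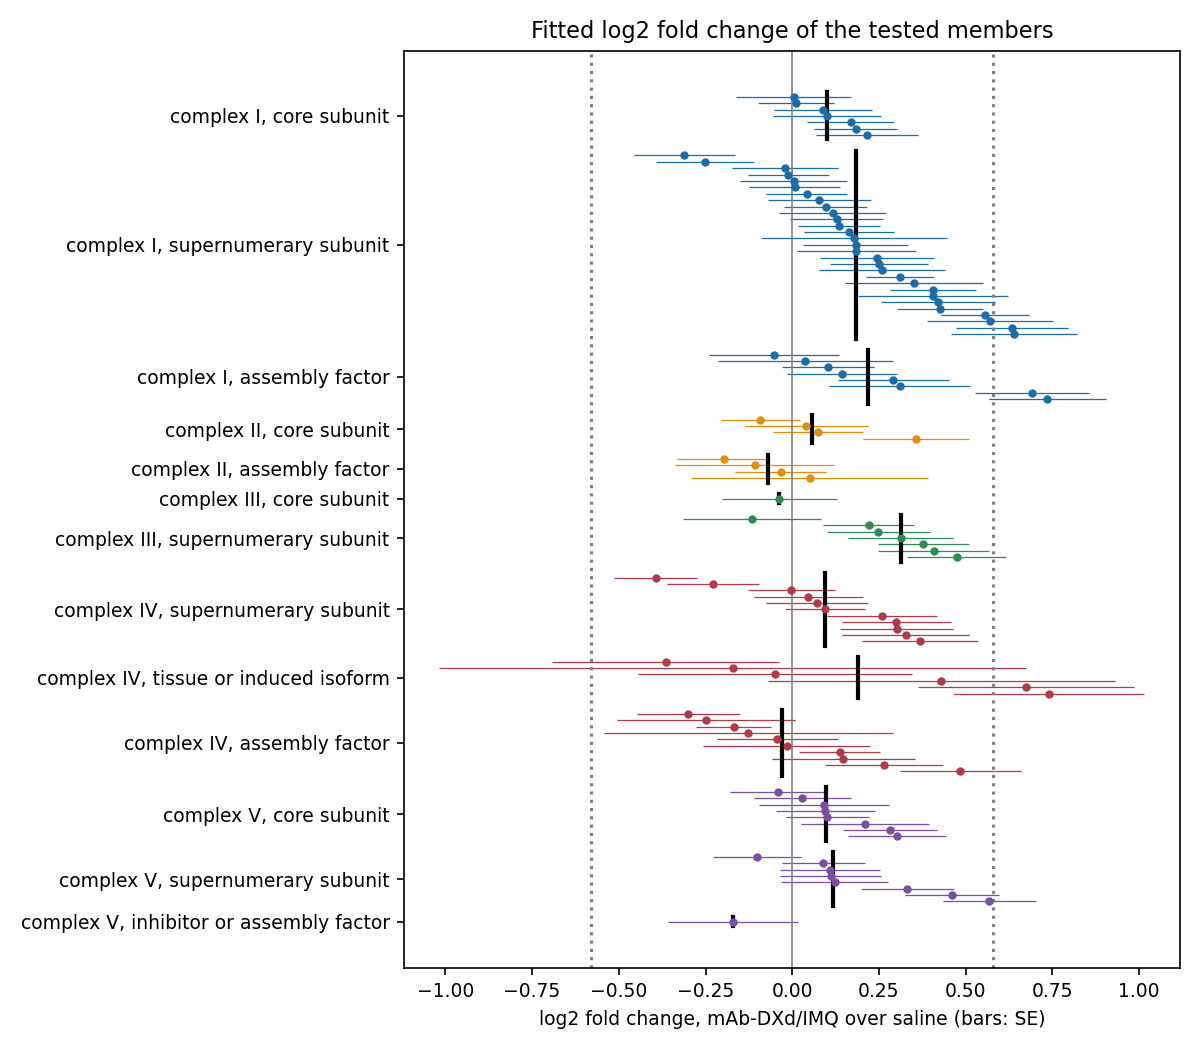
Fitted log2 fold change (horizontal axis, mAb-DXd/IMQ over saline) of each of the 104 tested members with its standard error, grouped by complex and role, with black bars at group medians and dotted lines at the limit of 0.58. Most points lie right of 0, with medians from -0.17 for the complex V inhibitor or assembly factor to 0.31 for complex III supernumerary subunits.

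Many members shared an order of tumors, which was not tested. Each member's log2 CPM was set against its mean over the 8 tumors and averaged. The mean deviation over all members was -0.15, -0.082, 0.012, and -0.057 in saline tumors 1 to 4, and 0.32, 0.014, -0.18, and 0.12 in mAb-DXd/IMQ tumors 1 to 4. Over all tested genes it was -0.019, -0.060, 0.0044, and -0.0086 in saline tumors and -0.066, 0.040, 0.048, and 0.061 in mAb-DXd/IMQ tumors. For the members, mAb-DXd/IMQ 1 was the highest tumor and mAb-DXd/IMQ 3 the lowest, with the saline tumors between them. mAb-DXd/IMQ 1 was the highest of the 8 tumors for 66 members (63.5%, against 21.8% of all tested genes), and mAb-DXd/IMQ 3 was the lowest for 44 (42.3%, against 17.5%). The summed level of all members was 8400, 9011, 9342, and 9138 CPM in the saline tumors and 12187, 9488, 8044, and 9794 CPM in the mAb-DXd/IMQ tumors. As a share of total counts, without TMM factors, the members were lowest in saline 1 (0.839%), followed by mAb-DXd/IMQ 3 (0.857%).

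The 10 assembly factors of complex IV did not show this order, at 0.0067 in mAb-DXd/IMQ 1, -0.014 in mAb-DXd/IMQ 3, and 0.091 in saline 2, their highest tumor, and Atp5s of complex V was lowest in mAb-DXd/IMQ 1. mAb-DXd/IMQ 1 stood highest in each of the 5 complexes, with mean deviations of 0.36, 0.32, 0.43, 0.25, and 0.31 in complexes I to V. mAb-DXd/IMQ 3 was lowest in complexes I, III, and IV, at -0.21, -0.22, and -0.14, while saline 1 was lowest in complexes II and V, at -0.17 and -0.18. Without mAb-DXd/IMQ 1 the median log2 fold change of the members was 0.055 (all genes 0.016), and the complex medians were 0.079, -0.15, 0.17, 0.077, and -0.0028. Without mAb-DXd/IMQ 3 the median of the members was 0.20, and 1 member, Ndufb7, passed both limits (0.962%, against 0.467% of all genes tested without it). The spread was wider among treated tumors for most members: the SD of log2 CPM was greater in the mAb-DXd/IMQ group for 86 of 104 (82.7%, against 64.0% of all genes), with a median SD over members of 0.12 in saline and 0.29 in mAb-DXd/IMQ tumors. Over all tested genes the median SD was 0.23 in saline and 0.30 in mAb-DXd/IMQ tumors. In bulk samples, fewer cells of a type and less RNA per cell cannot be told apart.

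**Figure D2:**
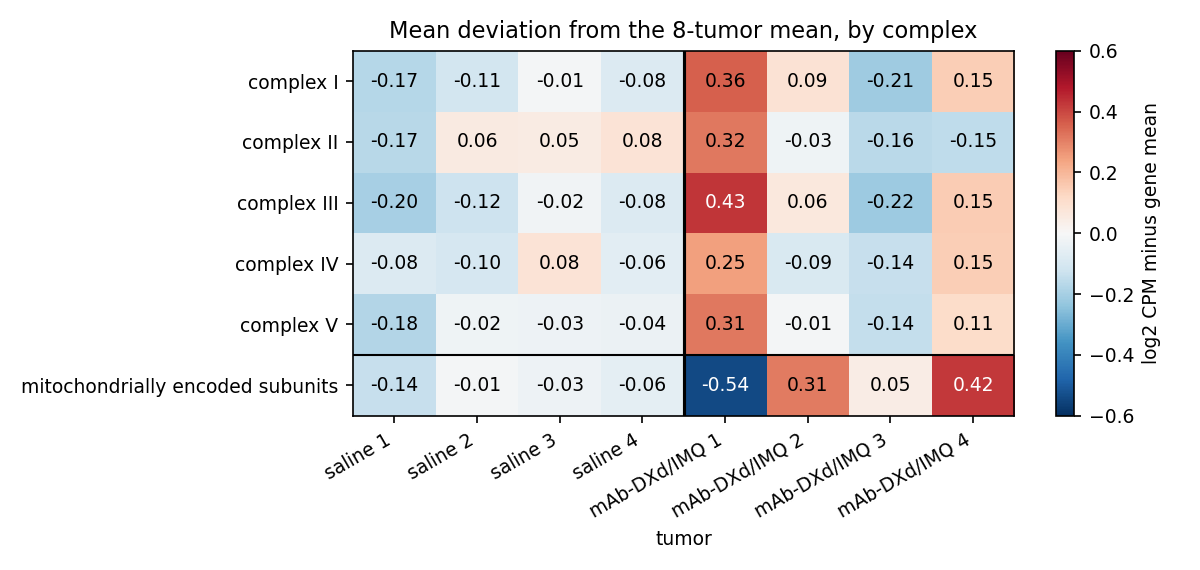
Mean deviation of log2 CPM from the 8-tumor mean (color and number in each cell) for the members of each complex and for the mitochondrially encoded subunits (lists on the vertical axis, tumors on the horizontal axis, vertical line between the groups). mAb-DXd/IMQ 1 is highest in each complex, between 0.25 and 0.43, and lowest for the mitochondrially encoded subunits at -0.54.

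Complex I, the NADH dehydrogenase, held Ndufb9 and Ndufaf2, the members with the lowest p, which were followed by Atp5o of complex V. Its 7 core subunits, which hold the flavin and the iron-sulfur clusters, all had log2 fold changes above 0, from 0.0044 for Ndufs7 to 0.22 for Ndufv2 (median 0.10). Of these, 4 were below 0 without mAb-DXd/IMQ 1: Ndufs1 (-0.075), Ndufs7 (-0.15), Ndufs8 (-0.032), and Ndufv1 (-0.067). Ndufs7 (-0.11) and Ndufs8 (-0.034) were also below 0 under the length correction described below. Leaving out 1 tumor placed Ndufv2 between 0.096 and 0.33 and Ndufs3 between 0.040 and 0.23. The 29 supernumerary subunits of complex I had a median of 0.18, with 25 above 0. Its 8 assembly factors had a median of 0.22, with 7 above 0.

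Ndufaf2 (ENSMUSG00000068184, chromosome 13, 108002715 to 108158623, minus strand), an assembly factor that binds a late intermediate of complex I, was at 10.9, 9.59, 9.33, and 11.5 CPM in saline tumors and at 21.2, 14.6, 14.3, and 18.7 CPM in mAb-DXd/IMQ tumors. The groups did not overlap, and mAb-DXd/IMQ 1 was again the highest. Group means were 10.3 ± 1.04 and 17.2 ± 3.33 CPM (SD, n = 4 each), with a log2 fold change of 0.74 (SE 0.17, adjusted p = 0.0574 by edgeR's quasi-likelihood test). Ndufaf6 (ENSMUSG00000050323, chromosome 4, 11051045 to 11076205, minus strand), an assembly factor needed for early steps of complex I assembly, was at 7.5, 7.72, 10.1, and 8.31 CPM in saline and at 15.2, 11.8, 12.3, and 14.9 CPM in mAb-DXd/IMQ tumors. These groups did not overlap either (log2 fold change 0.69, SE 0.17, adjusted p = 0.0631 by edgeR's quasi-likelihood test). At the other end of the assembly factors, Ndufaf7, a methyltransferase, had a log2 fold change of -0.053 (SE 0.19).

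Among supernumerary subunits, Ndufb9 (ENSMUSG00000022354, chromosome 15, 58933756 to 58939488, plus strand) of the membrane arm had the lowest p of all members. It was at 73.2, 67.5, 78.6, and 79.8 CPM in saline tumors and at 125, 94.5, 94.5, and 126 CPM in mAb-DXd/IMQ tumors. All mAb-DXd/IMQ tumors lay above all saline tumors, with means of 74.8 ± 5.63 and 110 ± 17.8 CPM (SD, n = 4 each), a log2 fold change of 0.56 (SE 0.13), and an adjusted p of 0.0573 by edgeR's quasi-likelihood test. Ndufb7, another membrane-arm subunit, was at 54.2, 47.6, 48.7, and 50.5 CPM in saline and at 92.5, 75, 53.2, and 91.1 CPM in mAb-DXd/IMQ tumors. Here mAb-DXd/IMQ 3 lay within the range of the saline tumors (log2 fold change 0.63, SE 0.16, adjusted p = 0.0721 by edgeR's quasi-likelihood test). Ndufa2, a small subunit of the matrix arm, was at 45.1, 33.4, 46.6, and 41 CPM in saline and at 88.5, 60.5, 47.3, and 62.4 CPM in mAb-DXd/IMQ tumors. The groups were separated only by the narrow gap between saline 3 and mAb-DXd/IMQ 3 (log2 fold change 0.64, SE 0.18, adjusted p = 0.0975 by edgeR's quasi-likelihood test).

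The remaining complex I subunits without overlap between groups had smaller differences: Ndufs6, a subunit at the zinc site of the matrix arm (log2 fold change 0.43), Ndufa3 (0.40), and Ndufab1, the mitochondrial acyl carrier protein (0.31). Ndufab1 varied little within groups, at 29.6, 33.6, 33.9, and 30.6 CPM in saline and 37.3, 39.6, 41.1, and 40.4 CPM in mAb-DXd/IMQ tumors, and was 1 of the few members in which mAb-DXd/IMQ 1 was the lowest of the treated tumors. Ndufb11, an X-linked subunit of the membrane arm, had the lowest log2 fold change of complex I, -0.31 (SE 0.15, and -0.20 without mAb-DXd/IMQ 3). Tumors of the saline group were at 104, 115, 121, and 122 CPM and those of the treated group at 117, 91.9, 70, and 92.4 CPM, with mAb-DXd/IMQ 1 among the saline tumors.

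**Figure D3:**
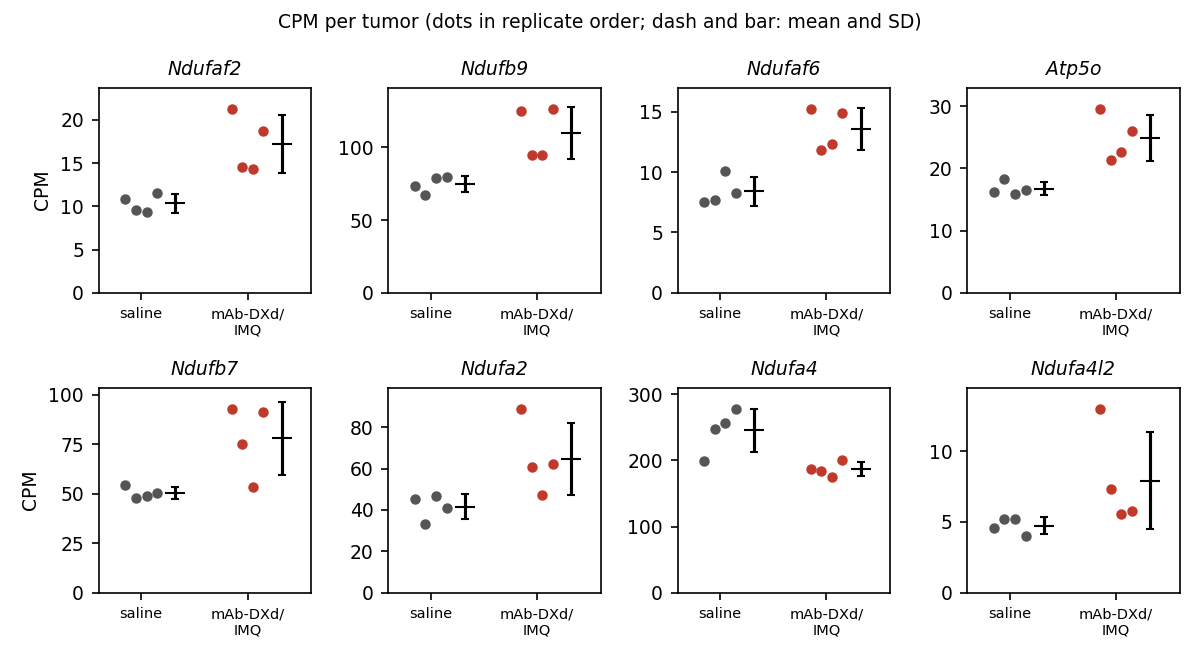
CPM (vertical axes, starting at 0) of 8 members in each tumor (dots in replicate order, gray for saline and red for mAb-DXd/IMQ), with the mean and SD of each group (n = 4) beside the dots. Ndufaf2, Ndufb9, Ndufaf6, and Atp5o show no overlap between groups, Ndufb7 overlaps through mAb-DXd/IMQ 3, and Ndufa4 overlaps through saline 1 at 200 CPM.

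Complex II, the succinate dehydrogenase, which also serves the citrate cycle, showed no common direction. Its catalytic subunits Sdha and Sdhb had log2 fold changes of -0.092 (SE 0.11) and 0.074 (SE 0.13), and its membrane anchors Sdhc and Sdhd 0.041 (SE 0.18) and 0.36 (SE 0.15). Without mAb-DXd/IMQ 1 the anchors were at -0.18 and 0.18. Sdha ranged from -0.16 to -0.013 when 1 tumor was left out. Sdhd was at 104, 107, 111, and 110 CPM in saline and at 184, 129, 105, and 134 CPM in mAb-DXd/IMQ tumors. Of the mAb-DXd/IMQ tumors, 3 lay above the saline range and mAb-DXd/IMQ 3 within it (adjusted p = 0.236 by edgeR's quasi-likelihood test). The 4 assembly factors had a median of -0.071, from -0.20 for Sdhaf4, which binds free Sdha, to 0.051 for Sdhaf1, which acts in iron-sulfur delivery to Sdhb. With the median of the complex near 0, its sign turned under several settings, such as scaling by DESeq2's size factors (-0.00055) and under the length correction (-0.070).

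Complex III, the cytochrome bc1 complex, had the highest median of the complexes. The only member grouped as a core subunit, the Rieske iron-sulfur protein Uqcrfs1, had a log2 fold change of -0.037 (SE 0.16). The 7 supernumerary subunits had a median of 0.31, with 6 above 0. Other catalytic subunits of this complex lie outside the name rule, and their values were above 0. Cyc1 was at 0.32 (SE 0.11, adjusted p = 0.136 by edgeR's quasi-likelihood test) without overlap between groups. mt-Cytb was at 0.24 (SE 0.21), and its groups overlapped. Uqcr10, a small membrane subunit, was at 55.1, 57.4, 63, and 69.2 CPM in saline and at 92.4, 74.4, 68.7, and 104 CPM in mAb-DXd/IMQ tumors. Only the close pair of saline 4 and mAb-DXd/IMQ 3 overlapped (log2 fold change 0.47, SE 0.14, adjusted p = 0.115 by edgeR's quasi-likelihood test). Uqcrc2, a large subunit of the matrix side, was the lowest at -0.12 (SE 0.20), with 104, 126, 134, and 125 CPM in saline and 165, 115, 81.3, and 89.6 CPM in mAb-DXd/IMQ tumors. mAb-DXd/IMQ 1 lay above every saline tumor and mAb-DXd/IMQ 3 and 4 below, whereas the mean of the members lay above every saline tumor in mAb-DXd/IMQ 4.

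Complex IV, cytochrome c oxidase, had medians on both sides of 0 by role, and the difference was not tested. Its 11 supernumerary subunits had a median log2 fold change of 0.094, with 8 above 0, and its 10 assembly factors a median of -0.029, with 4 above 0. After the length correction described below both medians lay below 0, at -0.032 and -0.091. Scaled to merged exon length, the most abundant members in saline tumors were subunits of this complex: Cox8a was at 341 ± 15.5, Cox6a1 at 273 ± 24.7, and Cox4i1 at 261 ± 12.3 CPM per kilobase (SD, n = 4). Per kilobase of a representative transcript the order differed, with Cox4i1 at 528, Ndufa4 at 402, Atp5b at 362, Atp5e at 345, and Cox8a at 338 CPM. Cox4i1, the regulatory subunit present in most tissues, was at 387, 388, 423, and 419 CPM in saline and at 631, 465, 368, and 527 CPM in mAb-DXd/IMQ tumors. The treated tumors enclosed the saline range, with mAb-DXd/IMQ 3 below it (log2 fold change 0.30, SE 0.16, and 0.16 without mAb-DXd/IMQ 1). Cox18, which inserts Cox2 into the membrane, had no overlap between groups, at 20.4, 16.4, 17.8, and 11.4 CPM in saline and 25.8, 22.2, 23.7, and 20.4 CPM in mAb-DXd/IMQ tumors. The lowest treated and highest saline tumor were almost equal (log2 fold change 0.48, SE 0.17, adjusted p = 0.169 by edgeR's quasi-likelihood test). Cox7a2l, which joins complexes III and IV in supercomplexes and was grouped here with the assembly factors, was the lowest of them at -0.30 (SE 0.15, and -0.18 without mAb-DXd/IMQ 3).

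Ndufa4, named for complex I but a subunit of complex IV, was the only member with a lower value at an unadjusted p under 0.05. It was at 200, 247, 257, and 277 CPM in saline and at 188, 184, 175, and 201 CPM in mAb-DXd/IMQ tumors. The groups met at saline 1 and mAb-DXd/IMQ 4, and the means were 245 ± 32.8 and 187 ± 10.8 CPM (SD, n = 4 each; log2 fold change -0.39, SE 0.12, adjusted p = 0.116 by edgeR's quasi-likelihood test). Its paralog Ndufa4l2, known as a target of hypoxia signaling that can take its place, was at 4.58, 5.21, 5.2, and 3.98 CPM in saline and at 12.9, 7.32, 5.59, and 5.79 CPM in mAb-DXd/IMQ tumors. The groups did not overlap, although mAb-DXd/IMQ 3 and 4 lay close to the saline tumors (log2 fold change 0.74, SE 0.28, adjusted p = 0.184 by edgeR's quasi-likelihood test). Of the summed CPM per kilobase of the pair, Ndufa4l2 made up 2.81%, 2.59%, 2.48%, and 1.78% in saline and 8.0%, 4.79%, 3.87%, and 3.51% in mAb-DXd/IMQ tumors. Without mAb-DXd/IMQ 1 the log2 fold change of Ndufa4l2 was 0.39. Ndufa4l2 overlaps Shmt2 in 2.92% of its exon bases, and Shmt2 had counts equal to 1215% of those of Ndufa4l2, so its value is uncertain.

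The other isoform pairs of complex IV were held by the ubiquitous form in every tumor. Per kilobase, the tissue-restricted form made up 1.16 ± 0.40% in saline and 0.75 ± 0.19% in mAb-DXd/IMQ tumors for Cox4i2 (lung and oxygen-regulated), 0.75 ± 0.22% and 0.62 ± 0.34% for Cox6a2 (heart and muscle), 0.18 ± 0.097% and 0.24 ± 0.089% for Cox6b2 (testis), and 1.66 ± 0.30% and 2.48 ± 0.72% for Cox7a1 (heart and muscle; SD, n = 4 each). Cox8b, another muscle form, was at 1.3, 0.045, 0.84, and 0.94 CPM in saline and at 1.03, 0.11, 0.26, and 1.41 CPM in mAb-DXd/IMQ tumors. It was lowest in saline 2 and mAb-DXd/IMQ 2, the tumors with the lowest summed muscle markers. The muscle markers summed to 782, 85.8, 616, and 379 CPM in saline and 638, 195, 443, and 531 CPM in mAb-DXd/IMQ tumors, with 21 of 22 tested, Acta1 the most abundant, and Tnnc2 at 0, and their part in the level of Cox8b was not tested. Cox7b2 and Cox8c, known from testis, were at 0 counts in all 8 tumors.

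Complex V, the ATP synthase, had a median of 0.098 over its 8 core subunits and of 0.12 over 8 tested supernumerary subunits. Atp5b, the catalytic beta subunit and the member with the most counts, was at 663, 714, 710, and 691 CPM in saline and at 1134, 788, 697, and 594 CPM in mAb-DXd/IMQ tumors. mAb-DXd/IMQ 1 and 2 were above and mAb-DXd/IMQ 4 below every saline tumor (log2 fold change 0.21, SE 0.18), and without mAb-DXd/IMQ 1 the value was -0.0058. Atp5o (ENSMUSG00000022956, chromosome 16, 91925214 to 91931687, minus strand), the subunit of the stalk that confers sensitivity to oligomycin, was at 16.2, 18.3, 15.9, and 16.5 CPM in saline and at 29.5, 21.3, 22.6, and 26 CPM in mAb-DXd/IMQ tumors. The groups were apart (means 16.8 ± 1.08 and 24.8 ± 3.66 CPM, SD, n = 4 each; log2 fold change 0.57, SE 0.13, adjusted p = 0.0597 by edgeR's quasi-likelihood test). Atp5j2, a subunit of the membrane sector, was at 116, 129, 134, and 135 CPM in saline and at 213, 160, 141, and 193 CPM in mAb-DXd/IMQ tumors, again without overlap (log2 fold change 0.46, SE 0.14, adjusted p = 0.107 by edgeR's quasi-likelihood test). Of the 3 genes for the c-ring subunit, whose mature proteins are identical, Atp5g2 made up 45.5 ± 2.78% of their summed CPM per kilobase in saline and 51.1 ± 1.78% in mAb-DXd/IMQ tumors (SD, n = 4 each), and Atp5g3 48.8 ± 2.58% and 43.3 ± 1.67%. These shares use the merged exon length. Per kilobase of a representative transcript, Atp5g3 was above Atp5g2 in both groups, with means of 267 and 189 CPM in saline and 260 and 233 CPM in mAb-DXd/IMQ tumors, and Atp5g2 shares most of its sequence with other genes. For Atp5g2 saline 1 (49.2%) lay above mAb-DXd/IMQ 3 (48.8%), so that the groups overlapped. At the low end of the complex, Atp5s, which couples the sectors of the enzyme, had a log2 fold change of -0.17 (SE 0.19). Its value lay between -0.31 and -0.093 when 1 tumor was left out.

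Members are short genes, and log2 fold changes depended on gene length across the whole table. The median gene length, the merged exon length given in the count table, was 1710 bases for tested members (360 to 8086) and 3516 bases for all tested genes. Across the 18511 genes the Spearman correlation of log2 fold change with length was -0.21, given as a description, since genes share the same 8 tumors. Among the 104 members the correlation was -0.082 with this length and -0.25 with the length of a representative transcript. In 10 bins of length, the median of all genes went from 0.15 in the shortest bin to -0.13 in the longest. Of the members, 60 of 104 lay above the median of all genes in their own bin, by a median of 0.047 over all members. In the shortest bin the median was 0.18 for 19 members and 0.15 for all genes, and in the next bin 0.12 for 29 members and 0.15 for all genes.

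A length trend was also fitted within each tumor, as the slope of log2 CPM, relative to each gene's mean, on log2 length over all tested genes. It was 0.0107, 0.033, 0.021, and 0.029 in saline tumors and -0.0104, -0.0218, 0.0126, and -0.0742 in mAb-DXd/IMQ tumors. Slopes were lower in mAb-DXd/IMQ tumors except that mAb-DXd/IMQ 3 exceeded saline 1 (difference -0.0469, two-sided exact permutation test, p = 0.0571, with 0.0286 the smallest p that 4 against 4 allow). Without a filter on counts the difference was -0.018, and without mAb-DXd/IMQ 4 it was -0.0299. After a spline in gene length was removed from each tumor, the median log2 fold change was 0.049 for members and -0.012 for all genes. The complex medians were then 0.063, -0.070, 0.20, -0.032, and 0.081, so that complexes II and IV lay below 0, and 0 members passed, against 0.659% of all genes. Ndufaf2 (0.66), Ndufb7 (0.62), Ndufaf6 (0.57), and Ndufa4 (-0.52) kept their direction under this correction. The length in the table exceeded that of a representative transcript more than 2-fold in 28 members, as for Atp5l (6443 against 544 bases), and the median transcript length of members was 945 bases. Corrected by transcript length, an alternative chosen after seeing the data, the median of the members was 0.034.

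**Figure D4:**
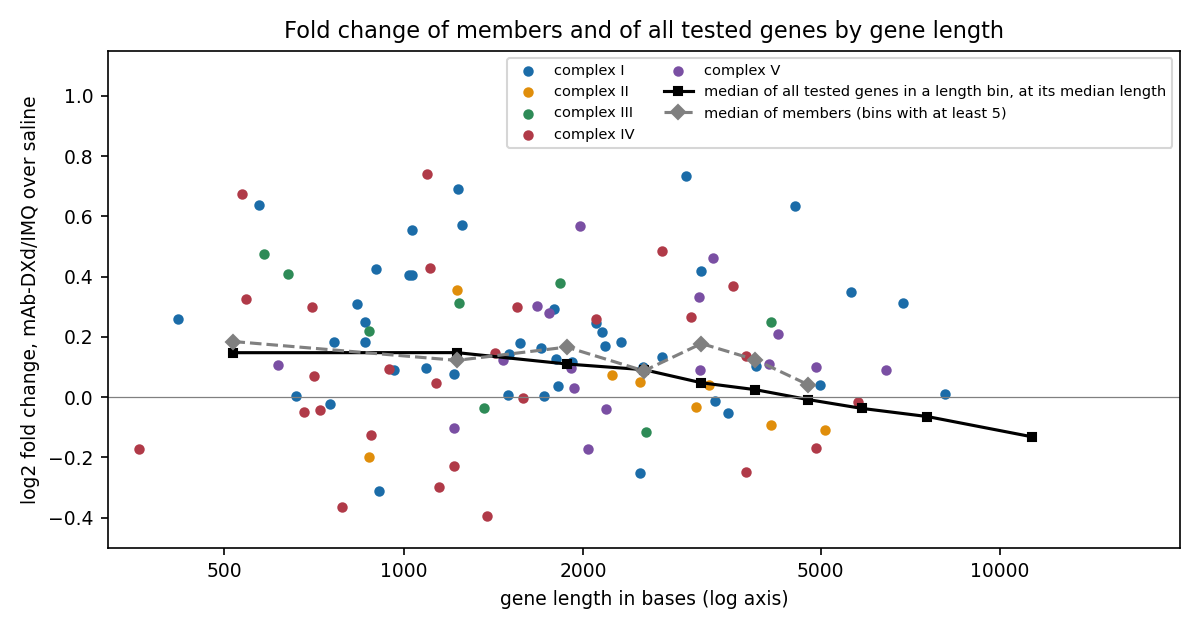
Log2 fold change (vertical axis) against gene length in bases (horizontal log axis) for the 104 tested members, colored by complex, with the median of all tested genes in each of 10 length bins (black squares) and of the members in bins with at least 5 of them (gray diamonds). The black line goes from 0.15 to -0.13, and the gray line is close to it in bins 1, 2, and 4 and above it in bins 3, 5, 6, and 7.

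Mitochondrial DNA encodes 13 further subunits of complexes I, III, IV, and V. Their median log2 fold change was 0.21, with 12 of 13 above 0 and 0 passing the test, and 0.064 after the length correction. In the tumor where nuclear members were highest, the mitochondrially encoded subunits were lowest: their mean deviation was -0.14, -0.014, -0.032, and -0.058 in saline tumors and -0.54, 0.31, 0.046, and 0.42 in mAb-DXd/IMQ tumors. mt-Co1, the catalytic subunit of complex IV and the gene with the most counts among them, was at 11947, 10482, 11362, and 10168 CPM in saline and at 8919, 14393, 13043, and 16531 CPM in mAb-DXd/IMQ tumors. Genes on chromosome MT held 2.52%, 2.46%, 2.47%, and 2.40% of counts in saline and 1.77%, 3.14%, 3.05%, and 3.61% in mAb-DXd/IMQ tumors. All treated tumors left the narrow saline range, 3 upward and mAb-DXd/IMQ 1 downward (means 2.46 ± 0.053% and 2.90 ± 0.79%, SD, n = 4 each, two-sided exact permutation test, p = 0.429). Without mAb-DXd/IMQ 1 the difference went from 0.43 to 0.81 percentage points, and without mAb-DXd/IMQ 4 to 0.19.

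Genes that serve the chain outside the name rule were set beside the members. Of 36 tested assembly factors, 27 had a log2 fold change above 0 (median 0.11) and 0 passed both limits. Timmdc1, an assembly factor of the complex I membrane arm named here after its values were seen, was at 18.4, 19.9, 16.7, and 17.9 CPM in saline and at 30.3, 26.8, 24.9, and 25.3 CPM in mAb-DXd/IMQ tumors. It had an adjusted p of 0.0469 by edgeR's quasi-likelihood test with a log2 fold change of 0.56, just short of the limit of 0.58. All 13 genes of coenzyme Q synthesis were above 0 (median 0.23, 0.13 after the length correction, 0 passing). The mean deviation of this list was 0.043 in mAb-DXd/IMQ 3, above every saline tumor, unlike that of the members. In this list the most abundant, Coq2, which attaches the isoprenoid tail, was at 58.5, 52.3, 59.2, and 58.4 CPM in saline and at 69.4, 71.9, 79.3, and 89.5 CPM in mAb-DXd/IMQ tumors. The groups did not overlap, and here mAb-DXd/IMQ 1 was the lowest of the treated tumors (log2 fold change 0.44, SE 0.11, adjusted p = 0.0677 by edgeR's quasi-likelihood test). For 7 other subunits and carriers the median was 0.10, with 0 passing.

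Genes of the citrate cycle, pyruvate dehydrogenase, and the mitochondrial pyruvate carrier, which feed the chain, had a median of -0.0046 over 20 genes, with 10 above 0 and 0 passing. Their mean deviation was highest in mAb-DXd/IMQ 1 (0.29) and lowest in mAb-DXd/IMQ 3 (-0.23), as for the members. The most abundant gene of this list, the malate dehydrogenase Mdh2, was also highest in mAb-DXd/IMQ 1, at 199, 211, 224, and 204 CPM in saline and 283, 214, 187, and 174 CPM in mAb-DXd/IMQ tumors. Regulators of mitochondrial biogenesis had a median of 0.051 over 20 tested genes, with 0 passing. Their most abundant gene, the coregulator Hcfc1, was at 183, 188, 201, and 179 CPM in saline and at 123, 153, 174, and 143 CPM in mAb-DXd/IMQ tumors (log2 fold change -0.34, SE 0.12). Tfam, which packages and transcribes mitochondrial DNA and is named here after its values were seen, was at 43, 40.9, 38.7, and 44 CPM in saline and at 65.4, 54.7, 45.4, and 52.9 CPM in mAb-DXd/IMQ tumors (log2 fold change 0.39, SE 0.12, adjusted p = 0.119 by edgeR's quasi-likelihood test). Both had groups that did not overlap, in opposite directions.

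Ribosomal protein genes had higher medians than the members, a difference that was not tested. The median was 0.19 for 77 mitochondrial ribosomal protein genes, of which 1, Mrpl18 of the large subunit, rose (log2 fold change 0.59), and 0.21 for 85 cytosolic ribosomal protein genes, of which 0 passed. After the length correction these medians were 0.14 and 0.11, against 0.049 for the members. The mean deviation of the mitochondrial ribosomal list was 0.34 in mAb-DXd/IMQ 1 and -0.096 in mAb-DXd/IMQ 3, and its lowest tumor was saline 1 at -0.19, where the members were at -0.15.

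Markers of the cell types in the tumors were set beside these values. Epithelial markers, 9 of 10 tested, summed to 2673, 2036, 2690, and 2546 CPM in saline and 3866, 3058, 2225, and 2353 CPM in mAb-DXd/IMQ tumors, and Krt18 was the most abundant. mAb-DXd/IMQ 1 was thus also highest in epithelial markers, and their mean deviation was -0.029, -0.65, 0.043, and -0.065 in saline and 0.70, 0.35, -0.44, and 0.089 in mAb-DXd/IMQ tumors (median log2 fold change 0.30, 0 passing). Their lowest tumor was saline 2, where the members were at -0.082, and their part in the tumor pattern of the members was not tested. Krt8 was between 493 and 887 CPM in the 8 tumors, Epcam between 193 and 701, and Cdh1 between 191 and 536. Among receptors that define TNBC by their absence from the protein level, Pgr was under 1 CPM in each tumor, whereas Esr1 transcripts were between 13.6 and 20.6 CPM and Erbb2 transcripts between 74.3 and 118 CPM (median log2 fold change of the 3 genes -0.019, 0 passing).

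Leukocyte markers, 10 of 13 tested, had a median log2 fold change of -0.85 and all 10 were below 0. They summed to 508, 958, 622, and 729 CPM in saline and 459, 400, 546, and 376 CPM in mAb-DXd/IMQ tumors, with Csf1r the most abundant. Of them 2 fell, the T-cell coreceptors Cd4 (log2 fold change -1.91, adjusted p = 0.0201 by edgeR's quasi-likelihood test) and Cd8a (-1.22, adjusted p = 0.0201 by the same edgeR quasi-likelihood test). The mean deviation of these markers was -0.49, -0.50, -0.48, and -0.38 in mAb-DXd/IMQ tumors 1 to 4. Endothelial markers had a median of 0.43 over 9 genes (Pecam1 the most abundant), fibroblast markers -0.058 over 9 (Col1a1 the most abundant), muscle markers -0.021 over 21, adipocyte markers -0.60 over 8 of 13 (Pnpla2 the most abundant, Ucp1 at or near 0 in each tumor), and epidermal markers 1.04 over 5 of 10 (Krt14 the most abundant), with 0 passing in each list. Epidermal markers summed to 547 CPM in mAb-DXd/IMQ 2 and to between 34.4 and 225 CPM in the other tumors. How much any of these cell types adds to the level of the members was not tested.

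Some members share sequence or exons with other genes, and their values are uncertain where reads could be split. Over windows of 100 bases, the transcript matched other genes exactly in 88.3% of windows for Cox16, 86.4% for Atp5g2, and 61.4% for Atp5l. The share was 44.4% for Cox7c, 33.4% for Ndufb4, 29.5% for Atp5h, and 21.2% for Atp5o. It was 19.85% for Ndufs3, 19.79% for Ndufs5, 17.7% for Ndufa12, and 17.0% for Ndufb9. Of the exon bases of Cox20, 91.05% also belong to exons of Hnrnpu, and 48.4% of those of Cox11 to exons of Tom1l1. For Ndufaf2, 65.7% of exon bases also lie in exons of B230220B15Rik, whose own counts equaled 1.43% of those of Ndufaf2. For Atp5o, 47.9% of exon bases also lie in exons of other genes, of which Gm15976 had the most counts, 0.01% of those of Atp5o. The second entry of Atp5o, without counts, had 100% of its exon bases in exons of other genes, the first entry among them. Ndufa2 shares 11.5% of its exon bases with Tmco6, which had counts equal to 24.3% of those of Ndufa2. Ndufb11 shares 12.9% with Rbm10, whose counts equaled 63.8% of those of Ndufb11. For Ndufs1, 6.16% is shared with Eef1b2, whose counts equaled 1646% of those of Ndufs1. Ndufaf6, Ndufb7, and Ndufa4 had no shared windows and no overlapping exons. Whether the libraries kept strand is not given in the sources used here, so overlapping genes on opposite strands cannot be told apart either.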

How the data were processed

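Per the labels, bulk RNA-seq libraries came from 4 saline and 4 mAb-DXd/IMQ tumors, made from poly-A RNA and sequenced on an Illumina HiSeq X instrument. What the authors deposited are raw counts of reads on each gene, not normalized, beside a length of each gene in bases. The submitters' processing notes name HISAT2, HISAT, TopHat2, and the build mm39. Of 54409 genes also found in GENCODE M21, however, 98.33% had the same coordinates as in GRCm38, so coordinates are given as GRCm38. The given length equaled the merged exon length for 98.01% of them. The counting program and strandedness are not given in the sources used here.

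Counts were analysed in R 4.3.3 with edgeR 4.0.16 and in Python 3.11.15. Genes were kept by filterByExpr (minimum count 10, minimum total 15), scaled by TMM factors (0.939 to 1.07), and tested with the quasi-likelihood F-test of edgeR on group alone, with Benjamini-Hochberg adjustment over 18511 genes. A gene passed at an FDR under 0.05 if its log2 fold change also exceeded 0.58 in absolute value, the limits in the study's methods. Standard errors were approximated from the log2 fold change and its F statistic. Log2 CPM used a prior count of 2, and the length correction removed a spline with 5 degrees of freedom from each tumor. Single values per tumor were compared between groups by exact permutation of all 70 assignments, two-sided. Simulated counts in which 200 genes differ served to test the scripts. No libraries were duplicates: in the closest of all pairs the chi-square per degree of freedom was 34.1.

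Alternatives were DESeq2's size factors, upper quartile scaling, no filter, DESeq2 1.42.0, the length correction, the replicate number as a block, and leaving out each tumor. Corrections by transcript length and by length with GC content were added after seeing the data. Members and lists were chosen with earlier results of these data known. Genes named were members that passed, the highest and lowest subunit and assembly factor of each complex, core subunits, isoform pairs, and, of other lists, genes that passed, the most abundant gene, and some markers of identity. Timmdc1, Tfam, Cyc1, and mt-Cytb, and among members Ndufaf6, Ndufa3, Ndufab1, Ndufb7, Ndufb9, Ndufs6, and Atp5j2 were named after their values were seen. The promoters shown were chosen after matches were seen, and the rule for choosing them was revised 3 times: to prefer motif matches, to stay before the annotated gene start, and to print no annotated exon.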

Additional observations from a re-analysis of the deposited data

Results flagged for a closer look

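In 126 groups of 4 tumors examined, 5 had a tumor far from the other 3 of its group, and chance gives about 1 in 20. All 5 were in the saline group. Ndufv1 was at 94.4 CPM in saline 2 and between 99.1 and 99.9 CPM in the other saline tumors. Cox6a1 was at 218 CPM in saline 3 and at 183 CPM in the others. Atp5mpl, a small subunit of complex V, was at 117 CPM in saline 1 and between 152 and 156 CPM in the others. The mean deviation in saline 1 was -0.17 for complex II, with the other saline tumors between 0.048 and 0.081, and -0.18 for complex V, with the others between -0.037 and -0.025.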

How the results depend on the processing

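Of 53 named genes, 33 kept their sign in all 17 alternatives. Leaving out 1 tumor at a time, the count of members past the limits was between 0 and 1, the median of the members between 0.055 and 0.20, and the medians of complexes I to V between 0.079 and 0.24, -0.15 and 0.059, 0.17 and 0.37, 0.046 and 0.16, and -0.0028 and 0.19. The difference in length slope was between -0.0589 and -0.0299 (-0.018 without a filter), and that in the MT share between 0.193 and 0.806 percentage points. The count was 3 under upper quartile scaling and 4 under DESeq2, and it was 0 under the other settings with all tumors. The cause was not tested. Cox6b2, Cox8b, and Cox20 were among the members with low counts, at 1.41 CPM or less in every tumor. How far depth limits their values was not tested.

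Log2 fold changes with the other sign, each gene followed by its value, were as follows. Under upper quartile scaling: Uqcrfs1 0.0036, Cox6a2 0.0054, and Atp5g3 0.0037. Without a filter: Ndufs7 -0.00017. Under the length correction: Ndufs7 -0.11, Ndufs8 -0.034, Sdhaf1 -0.035, Sdhb -0.023, Sdhc -0.021, Cox6b1 -0.056, Cox7a2 -0.032, Atp5c1 -0.012, and Atp5d -0.077. Under the correction by transcript length, chosen after seeing the data: Ndufs1 -0.035, Ndufs7 -0.11, Ndufs8 -0.030, Ndufv1 -0.0079, Sdhaf1 -0.0027, Sdhb -0.041, Cox6b1 -0.047, Cox7a2 -0.023, Atp5c1 -0.022, and Atp5d -0.086. Under that by length and GC content, also chosen after seeing the data: Ndufs7 -0.14, Ndufs8 -0.051, Ndufv1 -0.016, Sdhaf1 -0.039, Sdhb -0.042, Sdhc -0.024, Cox6b1 -0.055, Cox7a2 -0.030, Atp5c1 -0.011, and Atp5d -0.11. The cause was not tested. With a tumor left out, the ranges of genes that took the other sign were Atp5a1 -0.14 to 0.22, Atp5b -0.0058 to 0.34, Atp5c1 -0.043 to 0.19, Atp5d -0.12 to 0.11, Atp5g1 -0.0028 to 0.17, Atp5g3 -0.19 to 0.038, Cox6a2 -0.38 to 0.19, Cox6b1 -0.035 to 0.16, Cox8b -0.73 to 0.19, Ndufaf7 -0.21 to 0.10, Ndufs1 -0.075 to 0.070, Ndufs7 -0.15 to 0.13, Ndufs8 -0.032 to 0.20, Ndufv1 -0.067 to 0.22, Sdhaf1 -0.22 to 0.24, Sdhb -0.053 to 0.14, Sdhc -0.18 to 0.16, Uqcrc2 -0.36 to 0.011, and Uqcrfs1 -0.24 to 0.075.

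The replicate numbers are shared by tumors of different mice. As a check, the correlations of same-numbered tumors' deviations were -0.170, -0.0546, 0.0794, and -0.0672, and not every tumor correlated best with its own number. With the replicate number as a block, 0 members and 14 genes in all passed, against 197 without it, and the median of the members was 0.11. With the block, the sign turned for Ndufs7 -0.023, Sdhaf1 -0.036, and Sdhc -0.0049. With the block and the length correction, the median was 0.032, 0 members passed, and the sign turned for Ndufs7 -0.14, Ndufs8 -0.055, Ndufv1 -0.027, Sdhaf1 -0.13, Sdhb -0.041, Sdhc -0.075, Cox6b1 -0.064, Cox7a2 -0.033, Atp5a1 -0.031, Atp5c1 -0.036, and Atp5d -0.10.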
